A study of Mus musculus with 11 samples.

Results

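The genes described are 9 myeloid C-type lectin receptors, Clec7a, Clec4a1, Clec4a2, Clec4a3, Clec4d, Clec4e, Clec4n, Clec5a and Clec12a, taken by symbol from the 16894 genes of the deposited table. All 9 were found by their Entrez identifiers. They were measured in 11 RNA-seq libraries of mouse microglia, the resident macrophages of the brain, all carrying the Cx3cr1-GFP reporter. There were 3 libraries of cultured primary microglia, 4 of sorted resident microglia and 4 of sorted transplanted microglia collected 3 months after transplantation. The labels attach chow with 600 mg/kg of the Csf1r inhibitor PLX3397, given in 3 cycles, to every library. It is left unsaid by the labels if the donors of resident cells ate it, where the transplanted cells came from, and if replicates were separate animals or cultures. The p-values therefore measure the spread between these libraries, which may be technical.

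C-type lectin receptors are membrane proteins whose extracellular lectin fold binds sugars, glycolipids or proteins on microbes and damaged cells. Activating receptors pass the signal to the kinase Syk, either through a motif in their own tail or through a partner adaptor, and Syk acts through Card9 on NF-kappaB. Inhibitory receptors carry an ITIM, a tail motif that recruits phosphatases. Clec7a (Dectin-1) binds fungal beta-glucan, signals through its own tail, and is a marker of the activated state that microglia take around amyloid plaques. Clec4n (Dectin-2), Clec4e (Mincle) and Clec4d (MCL) work with the adaptor Fcer1g, and Clec5a works with Tyrobp and Hcst. Clec4a2 (DCIR) and Clec12a (MICL) carry an ITIM, and Clec4a1 and Clec4a3 are close relatives of Clec4a2.

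All 9 genes lie on chromosome 6 of the mouse genome (GRCm38.p6). Clec4a1 (Entrez 269799, 122921848 to 122934619), Clec4a3 (73149, 122952515 to 122969878), Clec4a2 (26888, 123122690 to 123143999), Clec4n (56620, 123229843 to 123247024), Clec4d (17474, 123262107 to 123275268) and Clec4e (56619, 123281789 to 123289871) share a stretch of 368024 bases. That stretch holds 9 protein-coding genes in all, the other 3 being Clec4a4, Clec4b1 and Clec4b2. Clec12a (232413, 129349783 to 129365303) and Clec7a (56644, 129461591 to 129472785) are the ends of a second stretch of 123003 bases with 6 protein-coding genes. Clec5a (23845, 40574898 to 40585805) lies apart from both. Clec4a2 had estimated counts that were not whole in 11 of 11 libraries, while the other 8 genes had whole counts in every library. An estimate that is not whole divides reads between positions, so the values of Clec4a2 are uncertain to that extent.

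RefSeq gave a promoter window for 8 of the 9 genes, Clec4n being the one not matched. The 250 bases before the start that the table gives are shown for 3 genes that were high in cultured cells, Clec7a (chr6:129472786-129473035 on the minus strand), Clec4d (chr6:123261857-123262106 on the plus strand) and Clec4e (chr6:123289872-123290121 on the minus strand). They are set beside 2 genes that were higher in sorted cells, Clec5a (chr6:40585806-40586055 on the minus strand) and Clec4a3 (chr6:122952265-122952514 on the plus strand). Each reads 5′ to 3′ on the strand of its gene in GRCm38.p6, and capitals mark every match to 1 of 5 motifs searched on both strands: GAGGAA (the core of PU.1 sites), TGANTCA (AP-1), TTGCNNAA (C/EBP), CACGTG (E-box) and, for the initiation of transcription, TATAAA.
Clec7a: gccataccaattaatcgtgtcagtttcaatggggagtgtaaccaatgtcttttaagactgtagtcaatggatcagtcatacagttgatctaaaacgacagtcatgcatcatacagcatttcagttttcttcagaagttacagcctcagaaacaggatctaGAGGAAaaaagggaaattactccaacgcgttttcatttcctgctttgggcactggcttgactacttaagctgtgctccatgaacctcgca
Clec4d: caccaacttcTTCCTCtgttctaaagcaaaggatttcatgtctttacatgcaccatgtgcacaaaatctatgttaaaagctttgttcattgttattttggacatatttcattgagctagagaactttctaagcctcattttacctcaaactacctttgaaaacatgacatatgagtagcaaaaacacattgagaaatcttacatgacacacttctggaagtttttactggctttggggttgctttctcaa
Clec4e: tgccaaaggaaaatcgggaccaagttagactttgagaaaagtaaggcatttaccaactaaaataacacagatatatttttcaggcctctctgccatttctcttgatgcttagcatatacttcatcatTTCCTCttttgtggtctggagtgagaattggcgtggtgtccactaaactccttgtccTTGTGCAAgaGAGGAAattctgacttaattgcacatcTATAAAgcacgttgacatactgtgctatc
Clec5a: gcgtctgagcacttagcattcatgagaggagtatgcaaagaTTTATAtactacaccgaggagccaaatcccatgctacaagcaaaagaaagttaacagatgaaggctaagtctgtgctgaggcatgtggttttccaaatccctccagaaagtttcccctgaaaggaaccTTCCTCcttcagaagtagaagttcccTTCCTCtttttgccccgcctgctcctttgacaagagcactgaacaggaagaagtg
Clec4a3: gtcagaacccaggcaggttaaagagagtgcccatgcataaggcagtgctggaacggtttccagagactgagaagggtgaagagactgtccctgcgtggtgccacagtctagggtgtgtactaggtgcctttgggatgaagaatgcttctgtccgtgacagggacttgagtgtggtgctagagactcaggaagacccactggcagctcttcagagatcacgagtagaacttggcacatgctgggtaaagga

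GAGGAA, the core of the sites bound by the myeloid factor PU.1, was in 6 of the 8 windows, against 23.3% of 32851 RefSeq windows of the same length. In Clec7a it began 90 bases before the start, in Clec12a 61 and 47 bases before, in Clec5a 81 and 55 bases before, and in Clec4e 123 and 56 bases before. It lay further out in Clec4d, at 240 bases, and in Clec4a1, at 217 and 187 bases. The C/EBP motif TTGCNNAA was in 2 windows (9.56% of all windows), as TTGTGCAA 66 bases before the start of Clec4e and as TTGCGCAA 140 bases before that of Clec12a. The AP-1 motif TGANTCA was in 1 window (6.75% of all), at 213 bases in Clec12a. TATAAA was in 3 windows (12.4% of all), at 29 bases in Clec4e, at 161 in Clec4a2 and, as TTTATA, at 209 in Clec5a. CACGTG was in 0 of 8 (6.02% of all). No match overlapped that of another motif. The table's start for Clec12a lies downstream of the gene's outermost start, so its window (chr6:129349994-129350243 on the plus strand) falls inside the gene as given above; it is not shown, and its distances count from the table's start. GAGGAA was thus in windows of genes that were high in culture, of Clec5a, which was higher in sorted cells, and of Clec4a1, which differed little. These are matches of letters in a window and no measure of binding.

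Total expected counts were 26705034 to 28219696 in a cultured library, 19055655 to 19965631 in a resident one and 18692721 to 19761208 in a transplanted one. Levels are CPM, counts scaled to a common library total with TMM over the 11 libraries. A count of 0 allows a true level of up to 3 counts, which is 0.136 to 0.146 CPM in a library and covers counting error only. The 10 microglia markers, among them Tmem119, summed to 55158 to 62160.0 CPM in resident, 49148 to 59745 in transplanted and 3536 to 6069 in cultured libraries, and 10 of 10 were lower in cultured than in resident cells. Tmem119 was at 11.8 ± 2.6 CPM in cultured cells (SD, n = 3) and 6104 ± 345 in resident cells (SD, n = 4). The 12 monocyte markers summed to 9004 to 13230.4 CPM in cultured libraries, and to 16.7 to 25.8 (resident) and 29.2 to 33.4 (transplanted) in sorted ones, with 0 of 12 absent from any group. Fn1 alone held 8548 to 12754 CPM of the cultured sum, and of 11 markers tested 8 were called higher and 2, Ly6a and Plac8, lower in culture than in resident cells. The 13 border-associated macrophage markers summed to 4590.0 to 4897 CPM in cultured libraries, against 586 to 687 in resident ones and 396 to 643 in transplanted ones, with Cd209f at 0 in cultured and transplanted cells. In sorted cells most of that sum was Stab1, at 499.8 to 593 CPM in resident and 357 to 602 in transplanted libraries. Marker by marker, 13 were tested between cultured and resident cells, with 8 called higher in culture (log2 fold changes in edgeR). The 3 called lower were Cd163 (-2.68), Lyve1 (-3.07) and Cd209f, the last at 0 counts in culture. In transplanted against resident cells, 8 of 12 tested were called lower, such as Cd163 (-6.81), Lyve1 (-4.31), F13a1 (-4.28) and Pf4 (-1.91). Siglec1 (1.18) was the 1 called higher. In bulk libraries fewer cells of a type and less RNA per cell cannot be told apart.

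**Figure D1:**
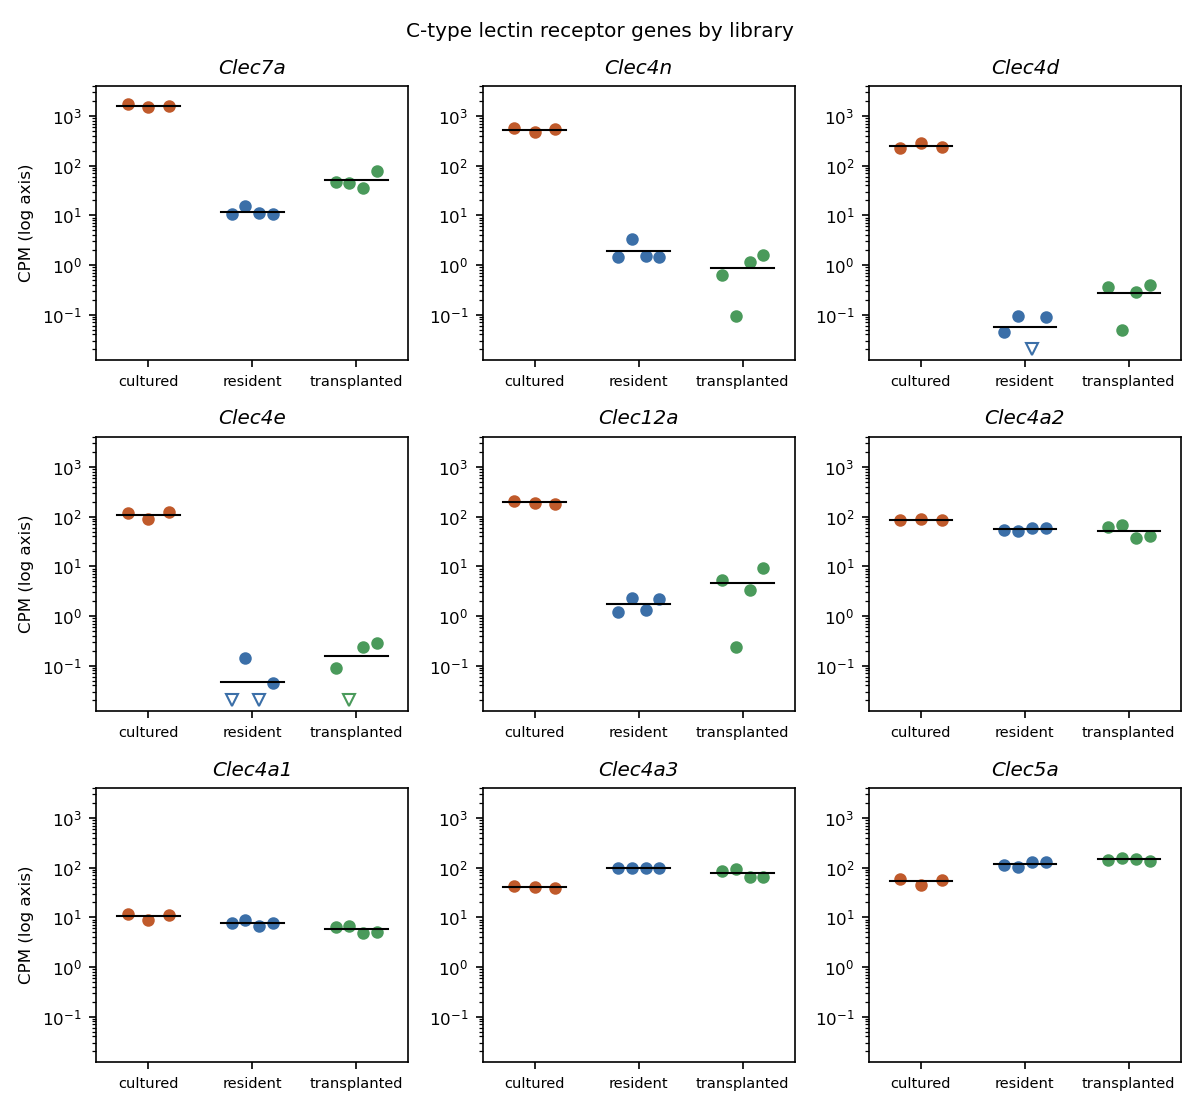
Level of each of the 9 receptors in each library, in CPM on a log axis, by group (3 cultured, 4 resident, 4 transplanted); points are libraries, lines are group means, and open triangles at the foot are libraries at 0. Clec7a, Clec4d, Clec4e, Clec4n and Clec12a are far higher in cultured libraries, whereas Clec4a3 and Clec5a are higher in sorted ones.

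The first question was how the receptors differ between cultured and resident microglia. Cultured cells held far more of 5 receptors: Clec4d, Clec4e and Clec4n, the partners of Fcer1g, and Clec7a and Clec12a. Clec4a3 and Clec5a were lower in culture by 2.32-fold and 2.19-fold on counts, and Clec4a1 and Clec4a2 differed little, in a direction that depended on the scale. In edgeR's quasi-likelihood test with Benjamini-Hochberg adjustment over 12406 genes, 9 of 9 receptors passed an adjusted p of 0.05, 7 higher and 2 lower. The same test called 75.1% of all genes, 37.9% as higher and 37.2% as lower, so the number that passed is close to the background. The receptors' median log2 fold change was 6.81, with 9 tested, and -0.02 over all genes tested. These medians are signed, and changes in opposite directions offset each other over all genes, so they do not compare the sizes of change. On the authors' TPM, which divide by gene length, 20.3% of all calls were higher against 50.5% on counts, with a median of -0.949, and 5 receptors were called higher and 3 lower. The size of a change also depended on the scale, by more than 1.5 times, for the 7 receptors that kept their direction. On log2(TPM + 1) the changes were 7.67 for Clec4d, 6.79 for Clec4n, 5.93 for Clec7a, 5.56 for Clec4e, 5.37 for Clec12a, -2.16 for Clec5a and -2.26 for Clec4a3, each called in limma, against the values on counts that follow. The added 1 holds down the changes of Clec4d and Clec4e, whose resident means were 0.11 and 0.0425 TPM. These values therefore do not order the receptors by size of change. With the length trend removed Clec5a was at -0.76 and Clec4a3 at -1.92.

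Clec4d, which pairs with Clec4e in recognising mycobacterial glycolipid, was at 227, 286 and 232 CPM in the cultured libraries. In resident libraries it was at 0.0453, 0.0934, 0 and 0.0914 CPM, in all 5 counts over the 4 libraries against 15420 counts over the 3 cultured ones. The groups did not overlap and every resident library was below the 3-count limit. The fitted log2 fold change was 11.96 ± 0.28 (SE, adjusted p = 5.36e-09, edgeR), or 10.17 on log2(TPM + 0.1), so with 5 resident counts its size is known only roughly.

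Clec4e, a sensor of dead cells and mycobacteria, was at 116, 90.2 and 123 CPM in cultured libraries. Resident libraries were at 0, 0.14, 0 and 0.0457 CPM, 4 counts in all against 6822 in culture. Again the groups were far apart and the resident value rests on single reads, so the fitted log2 fold change of 11.07 ± 0.37 (edgeR, adjusted p = 1.95e-08) is known only roughly. Leaving out 1 library at a time moved it between 10.67 and 12.34.

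Clec4n, a receptor for fungal mannans, stood at 564, 483 and 551 CPM in culture. In resident cells it was at 1.45, 3.41, 1.52 and 1.42 CPM, so replicate 2 lay above the other 3. The groups did not overlap, and the log2 fold change was 8.13 ± 0.32 (edgeR, adjusted p = 5.19e-08), a 279.9-fold difference.

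Clec7a had the highest level of the 9 in culture, at 1716, 1503 and 1618 CPM. The resident libraries were at 10.4, 15.2, 10.9 and 10.7 CPM, replicate 2 again the highest. The difference was 7.13 ± 0.18 on the log2 scale (edgeR, adjusted p = 6.36e-09), 139.95-fold, with no overlap. Clec12a, an inhibitory receptor for uric acid crystals, was at 207, 191 and 183 CPM in culture and at 1.22, 2.34, 1.33 and 2.19 CPM in resident cells. It was 112-fold higher in culture (log2 6.81 ± 0.22, edgeR, adjusted p = 1.83e-08). These 5 receptors were high in the libraries in which the summed monocyte and border-associated macrophage markers given above were also high. The monocyte sum was mostly Fn1, and some markers of both lists were lower in culture. The part of such cells in the difference was not tested.

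Clec4a3 was the reverse case. It was at 43.4, 41.6 and 39.3 CPM in cultured libraries and at 97, 96.8, 100.4 and 99.7 CPM in resident ones. The spread within each group was small, with SDs of 2.08 and 1.87, and the groups did not overlap (log2 -1.21 ± 0.09, edgeR, adjusted p = 2.73e-06). Clec5a, whose ligands include dengue virus, was at 57.6, 44.4 and 55.9 CPM in culture and at 115, 101, 127 and 131 CPM in resident cells. It too did not overlap between the groups, with a log2 fold change of -1.13 ± 0.14 (edgeR, adjusted p = 5.43e-05).

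Clec4a2 was at 86.2, 89.4 and 86.4 CPM in cultured and at 54.3, 51.3, 57.7 and 59.9 CPM in resident libraries. Every cultured library was higher, and the log2 fold change was 0.68 ± 0.10 (edgeR, adjusted p = 0.000147). On log2(TPM + 1) in limma it was -0.19, the opposite direction. Clec4a1 was at 11.4, 8.72 and 11.1 CPM in culture and at 7.61, 8.97, 6.79 and 7.77 CPM in resident cells. Its groups overlapped, and its log2 fold change of 0.45 ± 0.18 (edgeR, adjusted p = 0.04) was -0.59 on log2(TPM + 1). Its call also stood in only 2 of 7 fits that left out 1 library: it was lost without cultured replicate 1 or 3 and without resident replicate 1, 3 or 4.

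**Figure D2:**
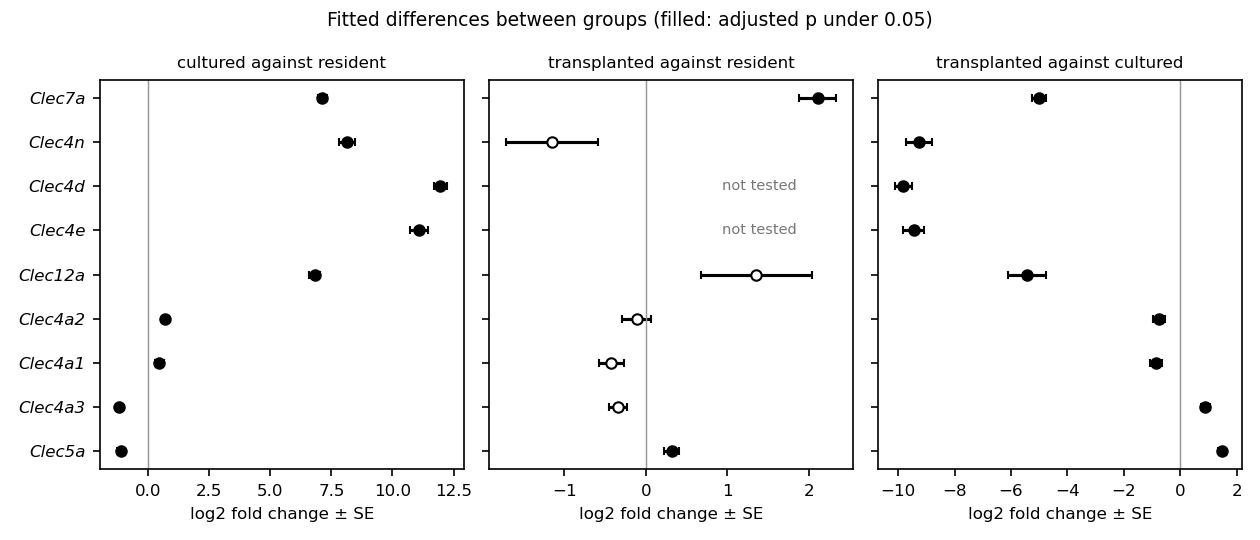
Log2 fold change of each receptor with its standard error in the 3 comparisons (edgeR, 2 groups in each fit); filled points passed an adjusted p of 0.05, and the 3 panels have axes of different range. Values run from 11.96 for Clec4d in cultured against resident cells to -9.82 for the same gene in transplanted against cultured cells, while the transplanted against resident values stay between -1.15 and 2.11.

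The comparison of transplanted with resident microglia asks whether cells that have lived in the brain for 3 months carry the receptor levels of resident cells. Clec7a was higher in transplanted cells, 4.31-fold, and Clec5a was slightly higher, 1.25-fold, and no receptor was called lower. The filter on low counts kept 7 of the 9 receptors, Clec4d and Clec4e having too few reads. Of those 7, 2 were called higher and 0 lower in edgeR's quasi-likelihood test, where 13% of 11929 genes were called, 7.17% higher and 5.86% lower. Their median log2 fold change was -0.11 and 0.02 over all genes. An unadjusted p under 0.05 was found for 4 of the 7, but the share of all genes at that threshold was not counted.

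Clec7a was at 46.6, 43.9, 35.8 and 76.6 CPM in the transplanted libraries, against 10.4, 15.2, 10.9 and 10.7 CPM in the resident ones. The lowest transplanted library lay above the highest resident library, and replicate 4 stood highest of all 8. The log2 fold change was 2.11 ± 0.23 (edgeR, adjusted p = 0.000229). It was called in all 8 fits that left out 1 library, at 1.84 to 2.24, with adjusted p of 8.06e-05 to 0.00165. The level nevertheless stayed far from culture: transplanted cells held 50.7 ± 17.8 CPM (SD, n = 4) and cultured cells 1612 ± 107 (SD, n = 3). Microglia marker sums of the 2 sorted groups overlapped.

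Clec5a was at 145, 157, 149.9 and 138 CPM in transplanted cells and at 115, 101, 127 and 131 CPM in resident cells. The groups did not overlap, by a margin from 131 to 138, and the log2 fold change was 0.32 ± 0.09 (edgeR, adjusted p = 0.0358). The call was lost in 6 of 8 fits without 1 library (without resident replicate 1, 2 or 3, or transplanted replicate 1, 2 or 3), where the value ranged from 0.24 to 0.36. It was also lost in 1 fit over all 11 libraries (0.31, adjusted p = 0.115) with the length trend removed (0.27, adjusted p = 0.0748) and with the replicate number as a block (0.32, adjusted p = 0.0756).

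Clec12a was scattered in transplanted libraries, at 5.32, 0.24, 3.4 and 9.15 CPM, a 38.1-fold range. Resident libraries were at 1.22, 2.34, 1.33 and 2.19 CPM. Replicates 1, 3 and 4 of the transplanted cells were above every resident library and replicate 2 below them, so the groups overlapped, and the log2 fold change was 1.36 ± 0.68 (edgeR, adjusted p = 0.23). Over the 8 fits that left out 1 library it ran from 0.76 to 1.74, with adjusted p up to 0.545, and 1 passed. That fit left out transplanted replicate 2, the library seen to be low (1.74 ± 0.36, edgeR, adjusted p = 0.0123). Clec4n was at 0.637, 0.0961, 1.16 and 1.6 CPM in transplanted cells, replicate 2 the lowest again, and did not pass (log2 -1.15 ± 0.57, edgeR, adjusted p = 0.221).

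Clec4d and Clec4e were at the edge of detection in both sorted groups. Clec4d was at 0.364, 0.048, 0.28 and 0.387 CPM in transplanted libraries, 23 counts in all against 5 in resident ones, and the groups overlapped. Clec4e was at 0.091, 0, 0.233 and 0.29 CPM, 13 counts against 4. Without the filter their log2 fold changes were 2.11 ± 0.80 (adjusted p = 0.139) and 1.60 ± 1.07 (adjusted p = 0.422) in edgeR, so no difference was detectable at this depth.

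Transplanted replicate 2 had the lowest Clec12a, Clec4n, Clec4d and Clec4e of the 4 transplanted libraries. It was also lowest in Ms4a7, a macrophage gene singled out after its values were seen, at 14.9, 1.59, 7.36 and 24.3 CPM over transplanted replicates 1 to 4. Ms4a7 was at 2.63, 5.79, 3.14 and 2.74 CPM in resident cells, and its log2 fold change of 1.76 ± 0.62 (edgeR, adjusted p = 0.0954) became 2.11 without transplanted replicate 2 (adjusted p = 0.00815). Among the other border-associated macrophage markers, some ran the other way and were highest in transplanted replicate 2, such as F13a1 at 1.78 CPM against 0.182 to 0.559, Cbr2 at 1.73 against 0.419 to 0.629, and Lyve1 at 0.432 against 0 to 0.182. Replicate 4 was highest in both Clec7a and Clec12a. The part of other macrophages in these values was not tested.

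The Clec4a genes varied together among transplanted libraries, in another pattern. Clec4a3 was at 84.5, 94.4, 65.9 and 65.2 CPM, all below the resident range of 96.8 to 100.4 (log2 -0.34 ± 0.11, edgeR, adjusted p = 0.0793). Clec4a2 was at 62.2, 67.3, 36.8 and 40.1 CPM and straddled the resident values (log2 -0.11 ± 0.18, edgeR, adjusted p = 0.74). Clec4a1 was at 6.42, 6.82, 4.85 and 5.03 CPM and overlapped with the resident range by a narrow margin (log2 -0.42 ± 0.15, edgeR, adjusted p = 0.0965). All 3 were higher in replicates 1 and 2 than in 3 and 4. The split was not particular to them: Tmem119 (6381, 6582, 5187 and 4892 CPM) and Vav2 (125, 112, 81.8 and 87.2 CPM) also had it. Relb (29.5, 34.6, 52.7 and 52.8 CPM) had the reverse, and the number of genes with either was not counted. Clec4a3 and Clec4a1 were each called lower in 1 of 8 fits that left out 1 library, the fit without transplanted replicate 2. There they were at -0.47 (edgeR, adjusted p = 0.0109) and -0.53 (edgeR, adjusted p = 0.0489). Over the 8 fits adjusted p reached 0.178 for Clec4a3 and 0.208 for Clec4a1. DESeq2 called Clec4a3 with all libraries (-0.35, adjusted p = 0.0267). Among the 6 astrocyte markers, whose sum ran the same way at 221, 269, 141 and 156 CPM, nearly all signal was Slc1a3 (218, 265, 138 and 153 CPM), with Gfap at most 0.581 and Aqp4 at most 1.35 CPM. Their part in the Clec4a pattern was not tested.

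**Figure D3:**
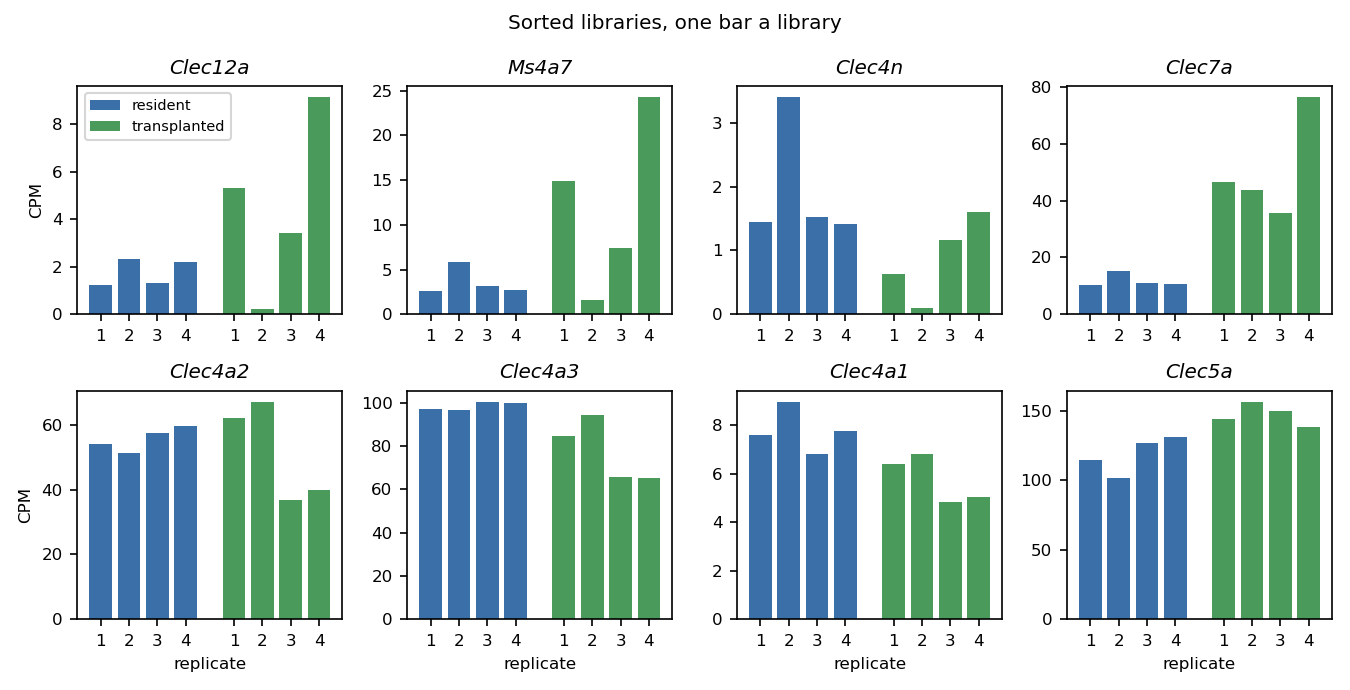
Levels of 7 receptors and of Ms4a7 in the 8 sorted libraries (4 resident, 4 transplanted), in CPM on axes from 0; each bar is 1 library, by replicate number. Every transplanted Clec7a bar is above the resident ones, and transplanted replicate 2 is the lowest of its group for Clec12a at 0.24 CPM and for Ms4a7 at 1.59 CPM.

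Transplanted cells were then compared with cultured cells, the comparison that shares its libraries with the 2 above. All 5 receptors that were high in culture were lower in transplanted cells, and Clec4a3 and Clec5a were higher. In edgeR's quasi-likelihood test over 12284 genes, 9 of 9 receptors were called, 2 higher and 7 lower, where 72.4% of all genes were called, 36.9% higher and 35.5% lower. The receptors had a median log2 fold change of -5.0 and all genes one of 0.05. No receptor's groups overlapped, but the share of all genes without overlap was not counted, so this does not set the receptors apart. On TPM 80.8% of all calls were higher, against 51% on counts, with a median of 0.977, and the receptors split into 2 higher and 5 lower.

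Clec4d fell by 9.82 ± 0.30 on the log2 scale from culture to transplanted cells (edgeR, adjusted p = 6.35e-09). Clec4e fell by 9.44 ± 0.37 (adjusted p = 2.89e-08) and Clec4n fell by 9.26 ± 0.46 (adjusted p = 1.18e-07). Clec12a fell by 5.43 ± 0.66 (adjusted p = 4.35e-05), and its transplanted libraries lay between 0.24 and 9.15 CPM. Clec7a fell by 5.0 ± 0.25 (edgeR, adjusted p = 1.34e-07), a 32.1-fold difference, against the 139.95-fold difference between culture and resident cells. Clec5a was 2.77-fold higher (log2 1.47 ± 0.13, edgeR, adjusted p = 4.87e-06) and Clec4a3 was 1.85-fold higher (log2 0.89 ± 0.16, edgeR, adjusted p = 0.000598). Clec4a1 (-0.86 ± 0.22, edgeR, adjusted p = 0.00495) and Clec4a2 (-0.77 ± 0.21, edgeR, adjusted p = 0.00752) were lower on counts, but on log2(TPM + 1) they were at 0.22 and 0.04. On that scale Clec5a was at 2.51, Clec4a3 at 1.95, Clec7a at -3.93, Clec12a at -4.67, Clec4e at -5.43, Clec4d at -7.23 and Clec4n at -7.68, each called in limma. The added 1 again holds down the sizes for Clec4d and Clec4e, at 0.53 and 0.145 TPM in transplanted cells. With the length trend removed Clec5a was at 1.05 and Clec4a3 at 1.63.

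Levels were compared between genes on TPM, which account for length. In culture Clec7a led at 848 ± 87.1 TPM (SD, n = 3), followed by Clec4n at 541 ± 69.1, Clec4d at 225 ± 19 and Clec12a at 171 ± 9.43. Clec4a2 came next at 85.8 ± 5.05 TPM, then Clec4e at 48.7 ± 9.94 and Clec4a3 at 41.5 ± 1.54, which overlapped, and Clec5a at 15.1 ± 2.67 and Clec4a1 at 7.91 ± 1.45 closed the order. In resident cells the order was another one, led by Clec4a3 at 203 ± 4.12 TPM (SD, n = 4), Clec4a2 at 98.1 ± 4.24 and Clec5a at 70.7 ± 7.18. Clec7a (13 ± 2.57 TPM) and Clec4a1 (12.4 ± 1.43 TPM) did not differ beyond their spread there, nor did Clec4n (4.12 ± 2.07 TPM) and Clec12a (3.22 ± 0.955 TPM), and Clec4d (0.11 ± 0.0837 TPM) and Clec4e (0.0425 ± 0.0613 TPM) were last.

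Transplanted cells kept the same 3 leaders as resident cells, Clec4a3 at 165 ± 25.6 TPM (SD, n = 4), then Clec4a2 at 90.8 ± 26.2 and Clec5a at 89.5 ± 4.21, the last 2 overlapping. Clec7a came next at 56.8 ± 20.1 TPM and did not overlap with Clec4a1 at 9.36 ± 1.41. From Clec4a1 down, each neighbour in the order overlapped the next in mean and SD: Clec12a at 8.25 ± 6.62 TPM, Clec4n at 1.94 ± 1.45, Clec4d at 0.53 ± 0.305 and Clec4e at 0.145 ± 0.123. Within each of the 4 libraries Clec12a was nevertheless above Clec4n, Clec4n above Clec4d and Clec4d above Clec4e, the last 2 on few reads. Clec4a1 and Clec12a did not keep 1 order. Summed over the 9 receptors, TPM were 2064, 1796 and 2089 in culture, 397 to 415 in resident libraries and 365 to 460.2 in transplanted ones. Clec7a made up 41.6% to 43.8% of that sum in culture, 2.82% to 4.24% in resident and 10.3% to 21.1% in transplanted cells.

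**Figure D4:**
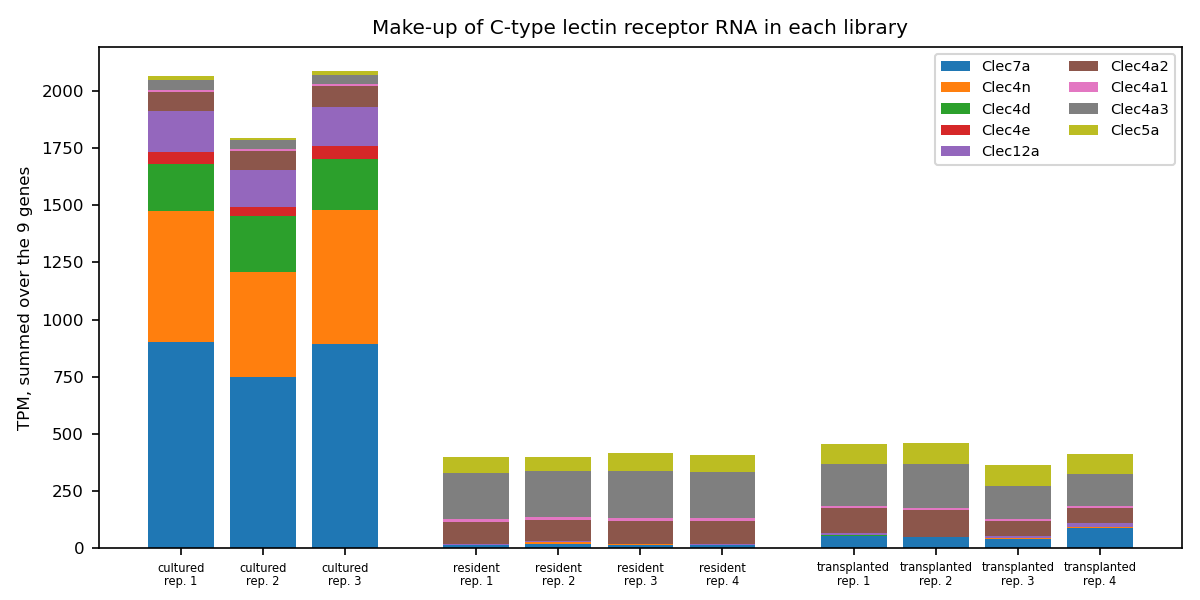
Summed TPM of the 9 receptors in each of the 11 libraries, stacked by receptor. Cultured libraries reach 1796 to 2089 TPM, mostly Clec7a and Clec4n, whereas sorted libraries stay between 365 and 460.2 TPM and are mostly Clec4a3 and Clec4a2.

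The signalling partners of the receptors were read from a list of 26 genes, from adaptors to kinases and NF-kappaB subunits. Between cultured and resident cells 11 were called higher and 11 lower (edgeR, Benjamini-Hochberg adjusted p under 0.05, median log2 fold change 0.02), where 37.9% of all genes were called higher and 37.2% lower. On TPM 3 were higher and 20 lower, where limma on log2(TPM + 1) called 1993 of 11445 genes higher and 7830 lower. Of the genes called on counts, Vav3 (6.75 ± 0.48), a guanine nucleotide exchange factor, and Hcst (1.92 ± 0.28), the adaptor of Clec5a, were furthest up. The calcium-responsive factors Nfatc2 (-2.31 ± 0.12) and Nfatc1 (-2.16 ± 0.15) were furthest down. The adaptors were higher in culture on counts, Fcer1g at 1674 ± 271 CPM against 680.2 ± 21.6 in resident cells (log2 1.34 ± 0.12, edgeR, adjusted p = 9.58e-06) and Tyrobp at 2509 ± 482 against 896 ± 48.3 (log2 1.52 ± 0.14, adjusted p = 8.2e-06). On log2(TPM + 1) these were 0.19 and 0.37, and with the trend on gene length removed Fcer1g was -0.38, Tyrobp -0.41 and Hcst -0.49, so no direction is given for them here.

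Syk differed little on counts (0.13 ± 0.12, edgeR, adjusted p = 0.339), at -0.95 on log2(TPM + 1) and 0.60 with the length trend removed. Card9 was lower in culture (-0.43 ± 0.14, edgeR, adjusted p = 0.0201). Of the 3 phosphatases that ITIM receptors recruit, Inpp5d was lower in culture at 202 ± 47.3 CPM against 1120.4 ± 92.3 (log2 -2.43 ± 0.18, edgeR, adjusted p = 2.44e-06). Ptpn6 stood at -0.25 ± 0.17 (edgeR, adjusted p = 0.212; -1.38 on log2(TPM + 1)) and Ptpn11 was higher at 1.31 ± 0.20 (edgeR, adjusted p = 0.000285).

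**Figure D5:**
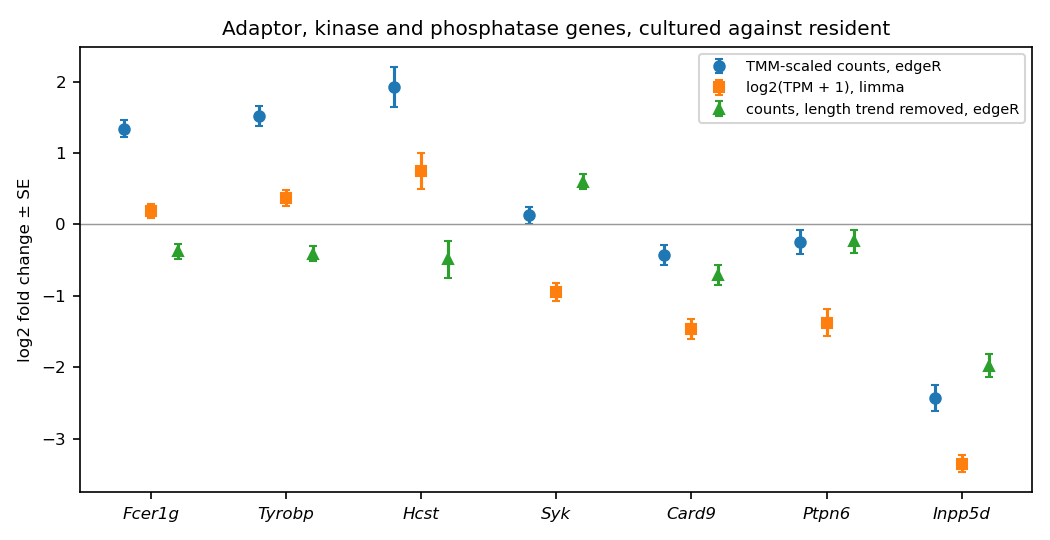
Log2 fold changes with standard errors of 7 adaptor, kinase and phosphatase genes in cultured against resident cells, from counts (circles, edgeR), from log2(TPM + 1) (squares, limma) and from counts with the length trend removed (triangles, edgeR). Fcer1g, Tyrobp and Hcst change sign with the trend removed, Syk is at 0.13, -0.95 and 0.60, and Inpp5d lies below 0 in all 3.

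Between transplanted and resident cells 25 of the signalling genes were tested, with 2 higher and 0 lower, where 13% of all genes were called. Src, a kinase, was higher by 0.73 ± 0.14 (edgeR, adjusted p = 0.00725) and the NF-kappaB subunit Relb by 0.68 ± 0.17 (edgeR, adjusted p = 0.0291). Relb was at 29.5, 34.6, 52.7 and 52.8 CPM over transplanted replicates 1 to 4, and its call was lost without any 1 resident replicate and without transplanted replicate 3 or 4. Fcer1g (-0.13), Tyrobp (-0.08), Syk (0.05), Card9 (0.02), Ptpn6 (0.15) and Inpp5d (0.00) did not pass, and of the 3 phosphatases 0 were called (0 at an unadjusted p under 0.05). Against culture 12 signalling genes were higher and 7 lower in transplanted cells, where 36.9% of all genes were called higher and 35.5% lower. On TPM 20 were higher and 4 lower, where limma on log2(TPM + 1) called 7755 of 11394 genes higher and 1843 lower. Vav3 had 0 counts in all 4 transplanted libraries, at least 327-fold lower than in culture against 3 counts over the group, and Hcst was at -1.77 ± 0.28 (0.85 with the length trend removed). Nfatc2 (2.26 ± 0.14) and Nfatc1 (2.19 ± 0.14) were the furthest up.

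Genes that lie downstream of receptor signalling, a list of 16 including cytokines and early response factors, were mostly higher in culture. Of 13 tested, 12 were higher and 0 lower than in resident cells in edgeR, where 37.9% of all genes were called higher and 37.2% lower. On TPM 10 were higher and 1 lower, where limma on log2(TPM + 1) called 1993 of 11445 genes higher and 7830 lower. On counts the 12 ran from Cxcl2 (9.18 ± 0.20) and Il1b (7.44 ± 0.39) to Nlrp3 (0.89 ± 0.20) and Tnfaip3 (0.43 ± 0.17). Tnf was the one not called (1.61, adjusted p = 0.104), with 61.3 CPM in resident replicate 1 against 5.53 to 5.89 in the other 3; without that library it was 3.36 (adjusted p = 2.4e-06). Between transplanted and resident cells 0 of 9 tested were called by edgeR and 0 by DESeq2, where edgeR called 13% of all genes. At an unadjusted p under 0.05 there were 3, but the share of all genes at that threshold was not counted. With 1 library left out, 0 to 2 were called in edgeR. Without resident replicate 1 there were 2, among them Il1b at 1.01 (edgeR, adjusted p = 0.038). Against culture 12 of 13 were lower in transplanted cells, where 35.5% of all genes were called lower, Egr3 (-8.77 ± 0.30) and Cxcl2 (-8.61 ± 0.24) the furthest.

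Genes whose log2 CPM ran most like each receptor over the 11 libraries were taken from 11683 genes that passed the filter in all comparisons. These correlations are descriptions and rest mostly on the gap between cultured and sorted libraries. Clec7a was most like Nceh1 (r = 0.997), Rab20 and Mcemp1 (both 0.995), and Clec4e most like Pla2g7 (0.998), St7 (0.994) and Igf1 (0.992). Clec4d was closest to Rab3d, Mpp1 and Sh3bgrl (all 0.994), Clec4n to Nudt2 and Dnttip2 (both 0.989), and Clec12a to Tlr8 (0.99). In the other direction Clec4a3 ran most like Ptger3 (0.992) and Clec5a like Tmem50b (0.991). Clec4a1 was closest to Rbbp4 (0.971) and Clec4a2 to Dipk1a (0.96). Within the 8 sorted libraries Clec7a was most like Tgfbi (0.989), Aph1b (0.986) and Cd200r4 (0.985), and Clec5a like Shisa5 (0.991), Lpgat1 (0.988) and Clpb (0.974).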

How the data were processed

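Per the file headers, the deposited table holds 3 values for each of 16894 genes in each of 11 libraries. The expected count is the authors' estimate of reads, unscaled for depth (81.5% to 84.9% of a library's values are whole). The TPM were normalised by the authors for length and depth, and the FPKM, also deposited, were not used. The submitters' processing notes name HISAT, Bowtie2 and GRCm38.p6; counter, annotation and strand are not given in the sources. The labels' protocols describe TRIzol extraction and a Smart-Seq amplification of 1 ng RNA. A RefSeq gene table of GRCm38.p6 matched 16845 identifiers (99.7%), and 49 stayed without a symbol.

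Libraries were grouped by title. Counts were rounded, and edgeR 4.0.16 (R 4.3.3; TMM, filterByExpr, quasi-likelihood test) was run on 2 groups at a time, calling genes whose p, adjusted by Benjamini-Hochberg over the whole table tested, was under 0.05. Alternatives were DESeq2 1.42.0, limma 3.58.1 on TPM with a pseudocount of 1 or 0.1, other scaling, no filter, 1 fit over all libraries, a length trend removed, a replicate block and leaving out each library. The scripts were tested on simulated data. The counts of 3 gene lists under these alternatives were added after seeing the data. The receptors and gene lists were chosen with earlier results of these data known. Besides the 9 receptors, the text names at most the 2 highest and 2 lowest called genes of a list, the adaptors, Syk, Card9 and phosphatases, and the 3 genes most like a receptor, except where it says otherwise or reports a marker beside a result.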

Additional observations from a re-analysis of the deposited data

Results flagged for a closer look

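Single libraries stood apart in 17 of 143 groups of 4 libraries, meaning that the gap of 1 library to the nearest other exceeded Dixon's critical value at 95%. For independent, normally spread values chance gives about 1 in 20 such groups. Some groups here hold only a few counts and genes of a library vary together, so 17 of 143 cannot be judged against that rate. The 74 genes examined were the 9 receptors, the genes named in the text other than those most like a receptor, and all response genes and border-associated macrophage markers. In 5 groups the library was resident replicate 2. It held 15.2 CPM of Clec7a, with the other 3 resident libraries at 10.4 to 10.9, and 3.41 CPM of Clec4n, with the others at 1.42 to 1.52. It also held 0.0934 CPM of Clec4b1, which lies below the 3-count limit (others 0.0453 to 0.0475), 5.79 CPM of Ms4a7 (others 2.63 to 3.14) and 24.9 CPM of F13a1 (others 10.6 to 11.9). Mrc1, a marker of border-associated macrophages, was likewise highest there at 56.6 CPM, with the others at 27.7 to 36.2. Without resident replicate 2 the Clec7a difference between transplanted and resident cells was still called.

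In 6 groups, all of response genes, the library was resident replicate 1. It held 79.2 CPM of Egr2 (others 2.1 to 2.65), 10.7 CPM of Egr3 (others 0.183 to 0.285) and 61.3 CPM of Tnf (others 5.53 to 5.89). The chemokine Ccl3 was at 144 CPM there (others 8 to 9.9), Ccl4 at 156 CPM (others 16.2 to 19.2) and Nlrp3 at 72 CPM (others 42.1 to 44.4). None of the 9 receptors stood apart in that library.

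Transplanted replicate 2 stood apart in Cbr2, at 1.73 CPM (others 0.419 to 0.629), and Il12b, at 0.817 CPM (others 0.182 to 0.29). Transplanted replicate 4 did so in Tnfaip3, at 114 CPM (others 89.6 to 92.3), and in Il23a, at 0.145 CPM (others 0.0455 to 0.048). Il12b was at 1.19 CPM in resident replicate 4 (others 0.0453 to 0.0475), and Il10 was at 0 in resident replicate 3 (others 0.0453 to 0.0467), again below the 3-count limit.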

How the results depend on the processing

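Over 25 receptor and comparison pairs and 407 alternative values, 369 kept their direction and side of the threshold, 20 lost and 4 gained a call, and 14 changed direction. In cultured against resident cells the reversals were Clec4a1 on TPM (-0.59 with a pseudocount of 1, -0.65 with 0.1, -0.59 without a filter) and Clec4a2 (-0.19 in each of these, -0.01 with the length trend removed). In transplanted against cultured cells they were Clec4a1 (0.22, 0.24 and 0.22) and Clec4a2 (0.04 in each), and in transplanted against resident cells Clec4a2, whose value ran from -0.28 to 0.01 with 1 library left out and was 0.01 without transplanted replicate 3. The cause was not tested. Receptors called between transplanted and resident cells numbered 2, but 1 in the fit over all libraries, with the length trend removed and with the replicate block, and 1 to 4 when 1 library was left out, the 4 being without transplanted replicate 2. All genes called there fell from 1554 to 912 in the fit over all libraries and ran from 1039 to 1753 with 1 library left out. Same-numbered libraries showed no clear sign of pairing: correlations of their deviations ran from -0.05 to 0.12, which cannot exclude it. Clec4d and Clec4e are limited by depth in sorted cells, where whole groups hold 4 to 23 reads.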

Other observations

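The wider family of C-type lectin receptors, 34 of a list of 38 genes found in the table, was tested beside the 9 receptors. Between transplanted and resident cells 18 were tested, and edgeR called 2 higher and 8 lower at a Benjamini-Hochberg adjusted p under 0.05, where 13% of all genes were called. Markers of other cells were called lower with them, 8 of 12 border-associated macrophage markers tested (3 of these, Cd209f, Clec10a and Mrc1, are on both lists) and Cd79b of the B cell receptor (-5.96 ± 0.22, adjusted p = 3.31e-07), and their part in the result was not tested. Cd209f and Cd209a, lectins of perivascular macrophages and dendritic cells, had 0 counts in all 4 transplanted libraries. Cd209f was at 5.67, 6.68, 2.29 and 5.05 CPM in resident cells, at least 139-fold higher against 3 counts over the group, and Cd209a at 4.3, 4.39, 1.9 and 2.74 CPM, at least 94.4-fold higher. The genes called higher in transplanted cells were Cd72, an inhibitory receptor best known from B cells (1.85 ± 0.23, adjusted p = 0.000536), and Olr1, a receptor for oxidised lipoprotein (1.78 ± 0.39, adjusted p = 0.0142). Cd72 was at 19.3, 19.1, 32.5 and 28.2 CPM in transplanted libraries and at 4.91, 5.91, 7.13 and 9.54 in resident ones, with no overlap. Leaving out 1 library gave 10 to 12 calls.

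Between cultured and resident cells 24 were tested, 12 higher and 7 lower, where 75.1% of all genes were called. On TPM 7 were higher and 8 lower, where limma on log2(TPM + 1) called 1993 of 11445 genes higher and 7830 lower. Clec4b1, a neighbour of Clec4a2, was at 6.2, 9.49 and 5.8 CPM in culture and at 0.0453 to 0.0934 in resident cells (6.85 ± 0.40, edgeR, adjusted p = 5e-07), and the scavenger receptor Colec12 was at 6.20 ± 0.32 (edgeR, adjusted p = 2.37e-07). Mrc2, a collagen receptor, ran the other way: cultured libraries held 2 counts in all, and the ratio of resident to cultured levels was 1366, with an exact Poisson interval of 378 to 11276 at 95%. Its level was 60.1, 31.5, 40.8 and 43.4 CPM in resident and 5.73, 4.13, 14.6 and 8.27 CPM in transplanted cells, lower by 2.42 on the log2 scale in the latter. Cd209f had 0 counts in culture too, at least 102-fold below resident cells. Against culture 20 were tested in transplanted cells, with 3 higher and 12 lower, where 72.4% of all genes were called. Furthest down were Clec10a (-8.49 ± 0.35, edgeR, adjusted p = 3.72e-08) and Clec4b1 (-7.09 ± 0.59, edgeR, adjusted p = 3.38e-06). On TPM 6 were higher and 9 lower, where limma on log2(TPM + 1) called 7755 of 11394 genes higher and 1843 lower.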
